A study of Arabidopsis thaliana with 12 samples.

Results

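REM22 and 3 related B3-domain genes of Arabidopsis thaliana were followed in inflorescence tips after steroid treatment. The genes are REM22 (locus AT3G17010, probe set 257930_at), AT2G35310 (synonym REM23, 266540_at), AT2G16210 (synonym REM24, 263092_at) and AT5G57720 (247875_at). They were taken by name from the deposited signal table and make up 4 of its 22746 probe sets other than controls. They had been picked because of their day 7 difference between steroid and mock tips, and REM22 also from an average over the days. The day 7 values of all 4 and the REM22 values of every day are therefore given as a description with no test.

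The steroid groups were tips 1, 3 or 7 days after 10 µM dexamethasone in 0.015% Silwet L-77 and 0.1% ethanol, and the mock groups had Silwet and ethanol alone, with 2 independent samples in each of the 6 groups. Plants of every group, mock included, were homozygous for ap1-1 and cal-1 and carried 35S:AGGR, the floral homeotic protein AGAMOUS fused to the rat glucocorticoid receptor. The 35S promoter is active in most plant tissues, and no group lacking the fusion was treated. Effects of the steroid itself and of AGAMOUS therefore cannot be told apart. The gene names supplied with the array do not name AGAMOUS, so the targeted gene was not analysed here.

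B3 proteins are plant transcription factors that bind DNA through the B3 domain, and the superfamily is divided into the ARF, LAV, RAV and REM families. REM stands for reproductive meristem: the founding gene was found in the meristems of the cauliflower curd, and many family members are active in inflorescence and floral meristems and in young flowers. AGAMOUS specifies stamens and carpels, and the fusion protein stays out of the nucleus until a steroid binds the receptor part. In ap1 cal double mutants the meristems proliferate as a curd before flowers form.

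The arrays differed between days. Deposited array medians were 16.1 to 20.8 on day 1, 20.1 to 32.2 on day 3 and 62.6 to 95.2 on day 7, so each array was multiplied to a common median of 24.8. RNA quality, read as GAPDH signal at the 3' end over that at the 5' end, differed as well, at 4.16 to 11.2 (day 1), 6.60 to 15.8 (day 3) and 1.09 to 1.41 (day 7). Replicate scatter followed the days too, with a median residual SD of log2 signal of 0.335, 0.321 and 0.132. The day 7 steroid arrays were scanned together on 1 date and the day 7 mock arrays on another, and for that day a scan effect and a treatment effect cannot be told apart. Of 25 tissue marker genes, 7 had a named probe set. The inflorescence meristem gene AGL24 lay between the 83.9th and 93.9th percentile of every array, while the stem cell gene CLV3 ran from the 32.6th to the 64.1st. UFO, the other named gene of that list, was dimmer, from the 9.7th to the 44.3rd. The leaf marker RCA lay between the 47.9th and 71.8th percentile on days 1 and 3 and between the 97.0th and 98.2nd on day 7.

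REM22 had the highest ratio of steroid to mock signal of the 4 genes on each day. On day 1 its scaled signal was 6.03 and 10.0 in steroid tips, against 4.01 and 2.74 in mock tips. On day 3 it was 39.7 and 22.9 in steroid tips, against 1.08 and 12.03 in mock tips. On day 7 it was 78.1 and 87.2 in steroid tips, against 7.34 and 5.97 in mock tips. Both steroid arrays thus lay above both mock arrays on each day, and mock signals stayed at or below the 33.8th percentile of their arrays. The day 1 steroid signals were dim as well, at the 22.6th and 29.2nd percentiles, so the day 1 ratio rests on dim signals alone. In these whole tips, more cells with the transcript and more transcript per cell cannot be told apart.

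**Figure D1:**
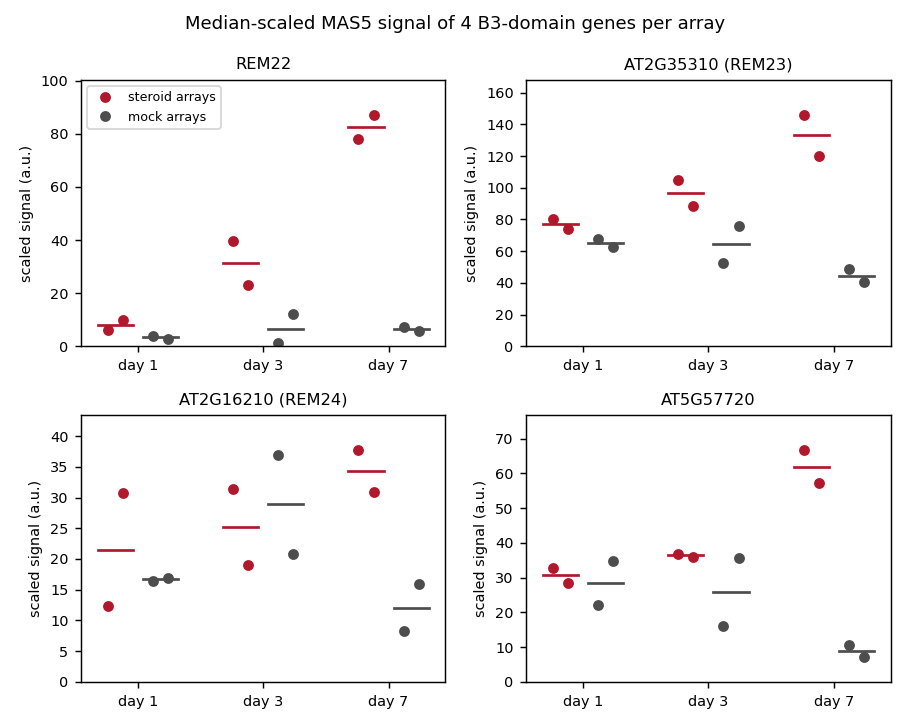
Median-scaled MAS5 signal (linear scale, arbitrary units) of the 4 genes on each array by day, with steroid arrays left of mock arrays; points are arrays and bars are means of 2. On day 7 both steroid arrays lie above both mock arrays in every panel, whereas AT2G16210 overlaps on days 1 and 3.

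Ordered by mean level, REM22 stood at 82.7 ± 6.42 (SD, n = 2) in day 7 steroid tips, then 31.3 ± 11.8 in day 3 steroid tips, with no array of the one below an array of the other. Next came day 1 steroid tips at 8.03 ± 2.82, day 7 mock tips at 6.65 ± 0.972, day 3 mock tips at 6.55 ± 7.74 and day 1 mock tips at 3.37 ± 0.893. Neighbours among these last groups overlapped. The ratio of mean signal, steroid over mock, was 2.38, 4.78 and 12.4 over the 3 days. Only 4 of the 12 arrays put REM22 above their own 40th percentile, and all 4 were steroid arrays of days 3 and 7, so REM22 passed the filter on dim probe sets only through the groups where it was high.

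AT2G35310, the REM23 gene, exceeded the 40th percentile of all 12 arrays. On day 1 its scaled signal was 80.2 and 73.9 in steroid tips, against 67.6 and 63.0 in mock tips. On day 3 it was 105 and 88.7 in steroid tips, against 52.7 and 75.9 in mock tips. On day 7 it was 146 and 120 in steroid tips, against 48.7 and 40.5 in mock tips. No steroid array fell into the mock range of scaled signal on any day. Unscaled, the day 3 signals overlapped, at 136 and 71.9 in steroid tips against 48.9 and 81.4 in mock tips. Mean signals in steroid tips were 77.0 ± 4.45, 96.8 ± 11.4 and 133 ± 18.5 (SD, n = 2) over the 3 days. Those in mock tips were 65.3 ± 3.30, 64.3 ± 16.4 and 44.6 ± 5.80, close on days 1 and 3 and lowest on day 7. Whether the day 7 gap differed from that of the earlier days was not tested.

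AT5G57720, a B3-domain gene with no symbol in the annotation, separated the treatments on day 7 and, in scaled signal only, on day 3. Its day 1 signal was 32.8 and 28.5 in steroid tips, against 22.2 and 34.8 in mock tips, which overlap. On day 3 it was 36.8 and 35.9 in steroid tips, against 16.0 and 35.6 in mock tips, with the closest arrays nearly equal. Unscaled, the day 3 signals overlapped, at 47.8 and 29.1 in steroid tips against 14.8 and 38.2 in mock tips. On day 7 the scaled signal was 66.7 and 57.1 in steroid tips, against 10.6 and 7.11 in mock tips. The day 7 mock level of 8.84 ± 2.44 (SD, n = 2) was the lowest of the 6 groups and lay below every mock array of days 1 and 3, at means of 28.5 ± 8.93 and 25.8 ± 13.9. The day 7 ratio of mean signal, 7.00, thus set the highest steroid level against the lowest mock level.

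AT2G16210, the REM24 gene, separated the treatments on day 7 alone among the 3 days. On day 1 its scaled signal was 12.3 and 30.7 in steroid tips, against 16.5 and 16.9 in mock tips. On day 3 it was 31.4 and 19.0 in steroid tips, against 37.0 and 20.8 in mock tips. On day 7 it was 37.7 and 30.9 in steroid tips, against 8.28 and 15.9 in mock tips. The highest day 3 mock array therefore reached the day 7 steroid level, and the order of the 6 group means overlapped at all steps except the last, above day 7 mock tips.

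Ranks within an array do not depend on how arrays are scaled. Those of day 7 come from the arrays on which the genes were chosen, so they describe the same difference and add no support for it. REM22 stood at the 77.6th and 79.8th percentiles of the steroid arrays, against the 29.6th and 30.6th of the mock arrays. AT2G35310 stood at the 86.0th and 89.4th percentiles in steroid tips, against the 60.0th and 65.3rd in mock tips. AT5G57720 was at the 69.5th and 73.9th in steroid tips, against the 32.2nd and 36.7th in mock tips. AT2G16210 was at the 54.4th and 59.4th in steroid tips, against the 32.7th and 43.1st in mock tips. The unscaled deposited signals were also apart, at 197 and 299 for REM22 in steroid tips against 25.1 and 22.9 in mock tips, and at 95.2 and 106 for AT2G16210 in steroid tips against 28.3 and 61.0 in mock tips.

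**Figure D2:**
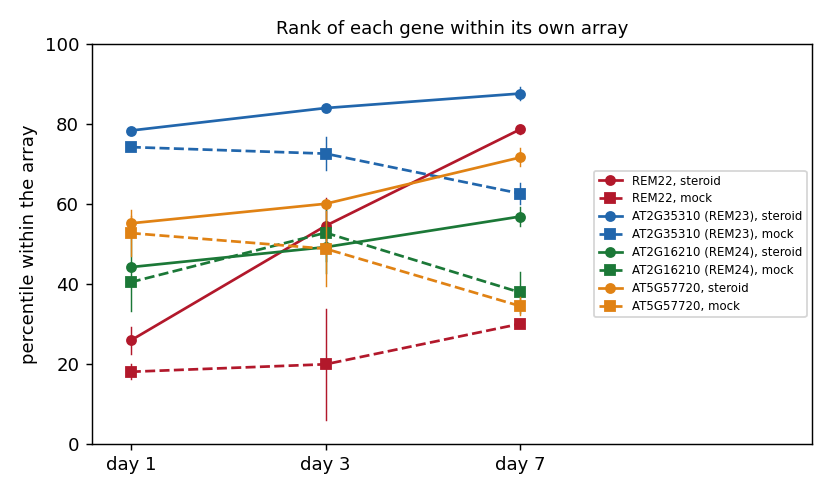
Percentile of each gene's signal among the 22746 probe sets other than controls of the same array, as the mean of 2 arrays per group (circles and solid lines, steroid; squares and dashed lines, mock), with vertical lines from the lower to the higher array. REM22 reached the 77.6th percentile or higher in day 7 steroid tips, and the mock lines of AT2G35310, AT5G57720 and AT2G16210 are at their lowest on day 7.

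Fold changes were fitted on log2 of the scaled signal plus an offset of 4.35, which understates ratios of dim signals. All 12 arrays entered a single limma fit in which each day had its own level of scatter, and p-values were adjusted over the 16511 probe sets that passed a brightness filter, all 4 genes among them. The day 7 changes, with no test, were log2 2.98 (SE 0.24, 7.91-fold) for REM22 and 2.34 (SE 0.18, 5.05-fold) for AT5G57720. They were 1.49 (SE 0.13, 2.81-fold) for AT2G35310 and 1.27 (SE 0.23, 2.41-fold) for AT2G16210. By size of rise these were places 5, 11, 28 and 41 among all tested probe sets, whose median change was 0.0009. All 4 passed the threshold that the choice had used, against a background of 1.76% of probe sets called on day 7 (1.01% higher and 0.745% lower). All 4 also had both steroid arrays above both mock arrays, as had 22.4% of tested probe sets, and all 4 exceeded log2 1, as did 0.418%. Nothing is read from these counts.

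Days 1 and 3 come from other arrays than those of the day 7 choice, except that REM22 had been named from an average that included them. On day 3 the fitted change of REM22, with no test, was log2 1.88 (SE 0.58, 3.68-fold). AT2G35310 had 0.58 (interval -0.07 to 1.22), AT5G57720 0.51 (-0.39 to 1.42) and AT2G16210 -0.16 (-1.29 to 0.98), each with a limma adjusted p = 0.999. The test called 3 of the 16511 probe sets on day 3 (0.0182%), and the median change of all of them was -0.12. The adjusted test thus did not separate the treatments for AT2G35310, AT5G57720 or AT2G16210 on that day, while the intervals of AT2G35310 and AT5G57720 still allow more than a 2-fold rise. With scan date as a block, the day 3 changes were 2.22 for REM22, 0.69 for AT2G35310, 0.53 for AT5G57720 and 0.15 for AT2G16210. Steroid replicate 2 of day 3 shared no scan date with the mock arrays of that day. These values therefore set steroid replicate 1 alone against the mock arrays.

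On day 1 the fitted changes were log2 0.67 for REM22 (SE 0.60, no test), 0.22 for AT2G35310 (95% interval -0.45 to 0.89), 0.20 for AT2G16210 (-0.99 to 1.39) and 0.12 for AT5G57720 (-0.83 to 1.06). limma called 0 of 16511 probe sets (0.0%), with 698 at an unadjusted p under 0.05, and the adjusted p of each of the 3 genes other than REM22 was 0.999. With scan date as a block, the day 1 values were 0.78 for REM22, 0.27 for AT2G35310, 0.19 for AT2G16210 and -0.16 for AT5G57720, which lay on the other side of 0 there. Each of these days had a single scan date that held arrays of both treatments. On day 1 it held mock replicate 2 but not mock replicate 1, so the day 1 block values rest on that mock array alone. Both steroid arrays lay above both mock arrays for REM22 and AT2G35310 on day 1, 2 of 4 genes against 14.1% of all tested probe sets. On day 3 the same held for 3 of 4 genes, all but AT2G16210, against 10.5% of tested probe sets. Fitted changes above 0 numbered 4 of 4 on day 1, against 47.1% of tested probe sets, and 3 of 4 on day 3, against 36.9%. All of these counts hold REM22, which had been named from an average that included these days. Nothing is read from them.

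**Figure D3:**
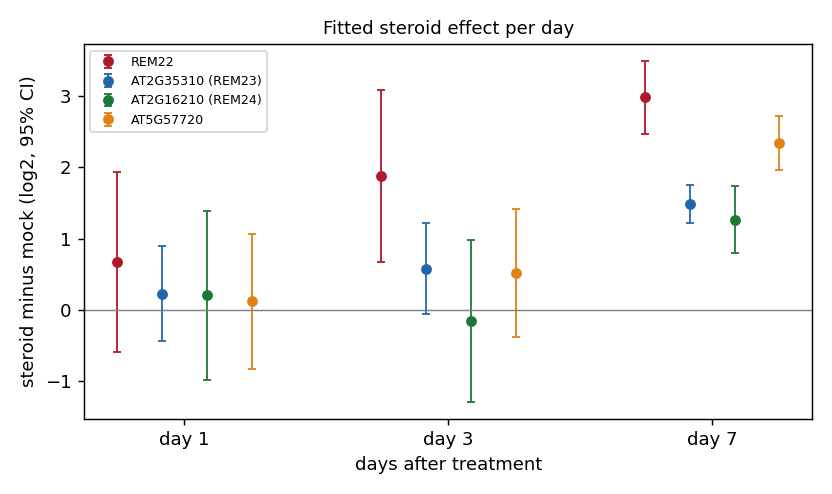
Fitted difference, steroid minus mock, in log2 of scaled signal plus offset, for the 4 genes on each day; points are estimates and bars are 95% intervals. The intervals of AT2G35310, AT2G16210 and AT5G57720 include 0 on days 1 and 3. The day 7 values, which run from 1.27 to 2.98, and the REM22 values of all days had a part in choosing the genes, so their intervals only show the scatter.

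The change in the steroid effect between days 1 and 3 was tested directly for the genes other than REM22. It was log2 0.40 for AT5G57720 (95% interval -0.91 to 1.71), 0.35 for AT2G35310 (-0.58 to 1.28) and -0.36 for AT2G16210 (-2.002 to 1.29). limma called 0 of 16511 probe sets for this difference (0.0%), with 450 at an unadjusted p under 0.05, and the adjusted p was 1 for each of the 3 genes. A stronger effect on day 3 was therefore not shown for them, nor was its absence. For REM22 the difference was 1.21 (SE 0.83), with no test.

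Change over time was also tested within each treatment between days 1 and 3. In steroid tips REM22 differed by log2 1.505 on day 3 against day 1 (SE 0.59, no test). The other 3 genes had 0.31 for AT2G35310, 0.26 for AT2G16210 and 0.22 for AT5G57720. In mock tips the values were 0.61 for AT2G16210, 0.29 for REM22, -0.04 for AT2G35310 and -0.18 for AT5G57720. limma called 0 of 16511 probe sets (0.0%) in either comparison, with 405 at an unadjusted p under 0.05 in steroid tips and 683 in mock tips.

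Comparisons of day 7 with day 1 hold the arrays of the choice and are given with no test. In steroid tips the day 7 level exceeded that of day 1 by log2 2.83 for REM22, 0.92 for AT5G57720, 0.75 for AT2G35310 and 0.67 for AT2G16210. In mock tips the differences were 0.51 for REM22, -1.30 for AT5G57720, -0.51 for AT2G35310 and -0.40 for AT2G16210. REM22 thus differed over time mainly in steroid tips, while the mock levels of the other 3 genes were lower on day 7 than on day 1. The median of all tested probe sets was -0.08 in steroid tips and -0.10 in mock tips, and array brightness and the GAPDH ratio changed with the day. Their part in these differences was not tested.

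Other B3-domain genes were read for a day 7 difference as far as they were listed, named and bright enough to test, which does not cover the whole family. A list of 82 loci was written from general knowledge of the superfamily, with 40 REM, 23 ARF, 13 RAV and 6 LAV genes. Of these, 29 had a named probe set: 24 REM genes, 5 of which the annotation calls REM, and 5 RAV genes. No ARF or LAV gene had a name, so these 2 families were not analysed here. Of the 25 genes besides the 4, 15 passed the brightness filter. The other 10, among them VDD (VERDANDI, an ovule regulator), NGA1 and NGA3, exceeded the 40th percentile on at most 1 array.

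On day 7, 5 of these 15 genes passed the test, 4 higher and 1 lower, against 1.76% of all tested probe sets called. Of all tested probe sets, 290 were called, 167 higher and 123 lower, or 217 and 104 after centring on the tested probe sets and 33 and 60 without scaling. The median change of the 15 was log2 0.28, against 0.0009 for all, and 11 of the 15 lay above 0, against 50.2% of all tested probe sets. A probe set that passed the filter only through its bright steroid arrays, as AT3G46770 did, had to differ, so the count is not independent of the filter. With no filter limma called 4 of the 25 other named genes, 3 higher and 1 lower, against 186 of all 22746 probe sets. In a fit with a single scatter for all 12 arrays limma called 0 of the 15, with 3 at an unadjusted p under 0.05.

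AT3G46770, a REM-type gene, rose the most of the 15. Its day 7 signal was 33.5 and 29.8 in steroid tips, against 3.42 and 6.23 in mock tips (log2 1.99, SE 0.28, 3.97-fold). On day 3 it was 8.09 and 26.5 in steroid tips, against 2.26 and 2.42 in mock tips, and on day 1 it was 2.01 and 3.17 in steroid tips, against 11.7 and 7.15 in mock tips. It exceeded the 40th percentile on 3 arrays, all of them steroid arrays, and so entered the test only through the group where it was high. Its p-value in the filtered test is therefore not given. With no filter its limma adjusted p was 0.00134. Its steroid arrays were thus below the mock arrays on day 1 and above them on days 3 and 7.

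AT3G53310, another REM-type gene, rose on day 7. Its signal was 143 and 126 in steroid tips, against 54.4 and 42.3 in mock tips (log2 1.40, SE 0.13, 2.64-fold, limma adjusted p = 5.2e-06). It exceeded the 40th percentile on all 12 arrays, so that the filter did not act on it. On day 3 its signal was 74.9 and 61.1 in steroid tips, against 72.1 and 68.6 in mock tips, with overlap. On day 1 it was 58.2 and 55.7 in steroid tips, against 55.9 and 80.4 in mock tips, again with overlap. The day 3 effect less the day 1 effect was 0.17 (limma adjusted p = 1), and the day 7 effect was not tested against either.

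AT5G09780, with the synonym REM25, was higher in steroid tips on day 7, at 18.2 and 16.1 against 6.84 and 5.81 in mock tips (log2 1.01, SE 0.24, limma adjusted p = 0.0369). Its day 3 mock arrays, at 19.9 and 18.9, lay above both day 7 steroid arrays. AT3G06220, also of the REM list, was higher in steroid tips as well, at 238 and 210 against 155 and 150 in mock tips (log2 0.54, SE 0.12, limma adjusted p = 0.0249). Its day 1 mock arrays were at 221 and 149, so the higher of them lay between the day 7 steroid arrays. The call of AT5G09780 was lost without any 1 of the 4 day 7 arrays, with adjusted p from 0.0870 to 0.268. That of AT3G06220 was lost without mock replicate 1, mock replicate 2 or steroid replicate 1 of day 7, at adjusted p = 0.132, 0.219 and 0.279. An earlier summary of these data had already shown AT5G09780 above 0 on day 7.

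The RAV family held the single fall. AT3G11580 fell on day 7 to 29.7 and 24.3 in steroid tips, against 49.0 and 56.6 in mock tips (log2 -0.87, SE 0.16, limma adjusted p = 0.00694). Its call was lost without mock replicate 2 (adjusted p = 0.126) or steroid replicate 2 of day 7 (adjusted p = 0.0612). NGA2 and NGA4 belong to the NGATHA genes, which are known for style and stigma development. They had log2 0.56 (adjusted p = 0.265) and 0.29 (adjusted p = 0.687) in limma's test.

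**Figure D4:**
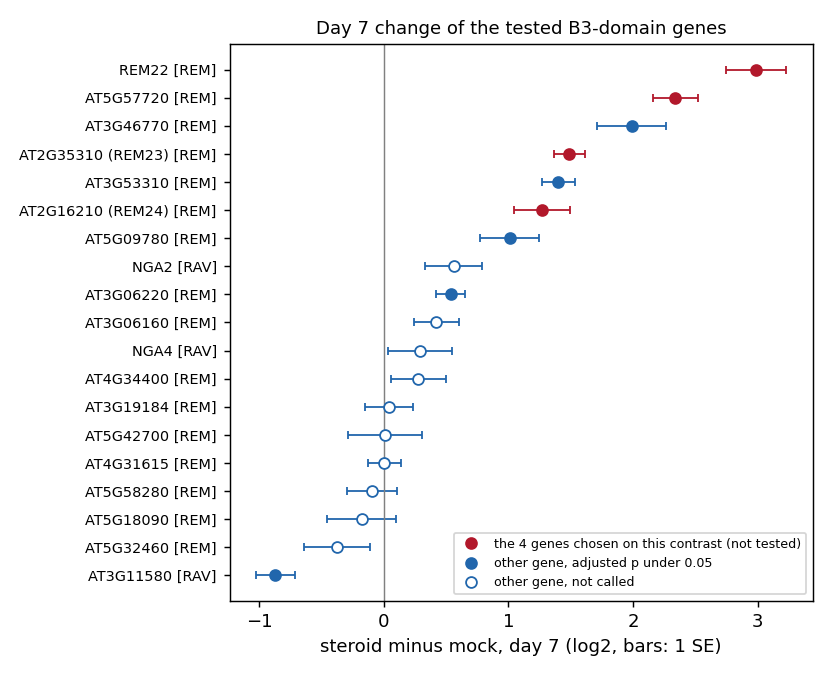
Fitted day 7 difference, steroid minus mock, in log2 of scaled signal plus offset, for the 19 tested B3-domain genes with their family in brackets; points are estimates and bars are 1 SE. Red marks the 4 genes chosen on this contrast, filled blue the 5 others with an adjusted p under 0.05 and open blue the 10 others; 4 of the 5 filled blue points lie above 0.

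The 10 remaining tested genes did not pass on day 7. Among them the REM-type genes AT5G32460 and AT5G18090 had the lowest values, at log2 -0.38 and -0.18 (limma adjusted p = 0.585 and 0.850). On day 3 limma called 0 of the 15 other genes, with 1 at an unadjusted p under 0.05, and on day 1 it called 0, with 0 at an unadjusted p under 0.05, against the backgrounds of 0.0182% and 0.0% above. Their median change was 0.02 on day 3 and 0.04 on day 1.

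**Figure D5:**
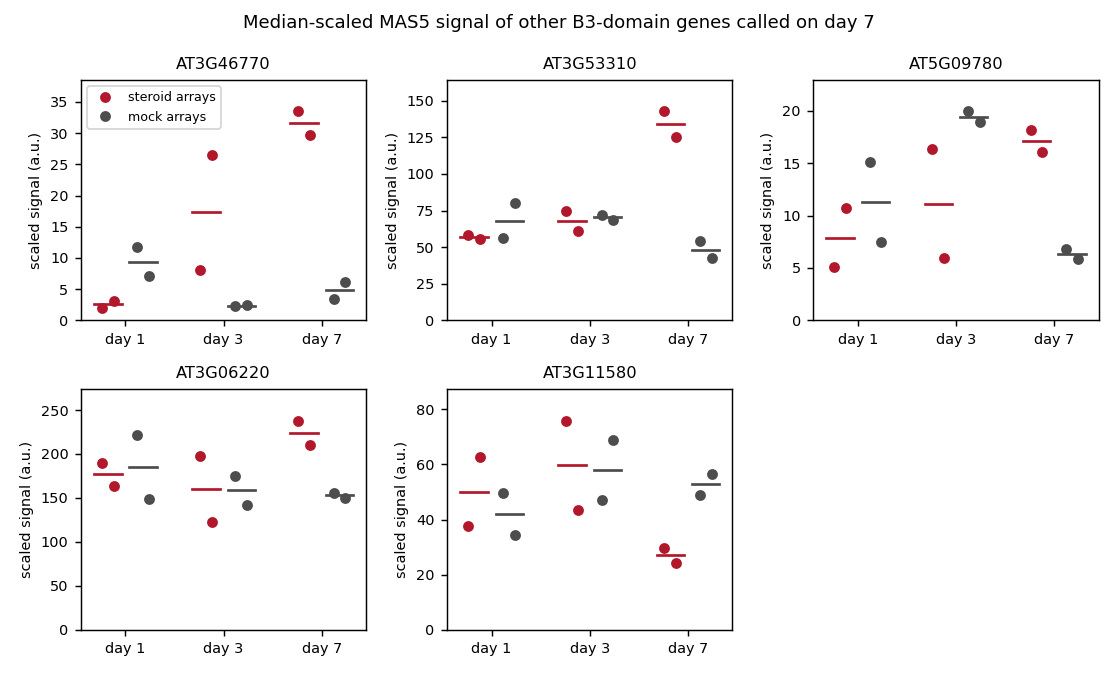
Median-scaled MAS5 signal (linear scale, arbitrary units) of the 5 other B3-domain genes called on day 7, by day, with steroid arrays left of mock arrays; points are arrays and bars are means of 2. AT3G11580 is the gene whose day 7 steroid arrays (29.7 and 24.3) lie below its mock arrays (49.0 and 56.6), and AT3G46770 has its steroid arrays below mock on day 1.

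Tissue markers were read beside these differences. The named inflorescence genes, 3 of 11 on their list, summed on day 7 to 129.6 to 134.0 in steroid tips, against 158.8 to 177.3 in mock tips, with no overlap. AGL24 made up most of that sum, and CLV3 lay the other way, at 12.73 to 14.02 in steroid tips against 8.19 to 11.1 in mock tips. The stamen list held 8 genes, of which SPL and AMS, regulators of early anther development, were named. Their summed signal on day 7 was 4.64 to 5.61 in steroid tips, against 1.62 to 3.66 in mock tips, so the sums did not overlap. SPL alone was apart, at 2.10 to 4.32 in steroid tips against 0.860 to 1.49 in mock tips, while AMS overlapped (0.317 to 3.503 in steroid tips, 0.755 to 2.16 in mock tips), and both genes lay at or below the 20.9th percentile there. UFO, a floral meristem gene, was at 2.02 to 5.49 in steroid tips on day 7, against 10.9 to 17.4 in mock tips. The leaf marker RCA was at 375 to 429 in day 7 steroid tips, against 403 to 463 in day 7 mock tips, and at 22.7 to 59.9 over days 1 and 3. The root marker EXPA7 was at 0.993 to 4.64 in day 7 steroid tips, against 0.819 to 0.886 in mock tips. The part of these tissues in the B3-domain results was not tested.

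Likeness to the 4 genes was measured as Pearson's r over the 12 arrays, on log2 values less their mean within each day, across 9231 other named probe sets. The arrays share treatment groups and the genes were chosen on the same contrast, so these values are a description. REM22 was closest to AT1G47610 (r = 0.965), AT2G35310 (0.957) and AT4G26280 (0.922). AT2G35310 was closest to AT5G57720 (0.959), REM22 (0.957) and AT1G47610 (0.948), and AT5G57720 to AT2G35310 (0.959), AT1G47610 (0.917) and REM22 (0.897). AT2G35310 was thus among the 3 nearest probe sets of both REM22 and AT5G57720, and they were among its own. AT2G16210 stood apart: its r was 0.523 with REM22, 0.563 with AT2G35310 and 0.542 with AT5G57720, and its nearest probe sets were AT1G16705 (0.886), AT1G56210 (0.856) and AT5G63220 (0.845).

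AT1G47610, near 3 of the 4 genes, had fitted steroid effects of log2 0.62, 1.70 and 2.68 on days 1, 3 and 7, beside 0.67, 1.88 and 2.98 for REM22. AT4G26280 had 0.40, 1.87 and 2.11. AT1G16705, nearest to AT2G16210, had 0.25, -0.05 and 1.78, beside 0.20, -0.16 and 1.27 for AT2G16210. The other near probe sets of AT2G16210 had smaller day 7 effects than it, with 0.26, 0.13 and 0.35 for AT1G56210 and 0.41, -0.23 and 0.47 for AT5G63220 on days 1, 3 and 7.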

How the data were processed

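Total RNA of inflorescence tips was labelled and hybridised to Affymetrix ATH1 arrays, 12 in all, from plants kept at 18 °C (16 h light, 8 h dark). The deposited values are linear signal intensities. The submitters' processing notes name MAS5, with version and scaling not given in the sources used here. No detection calls were used, so depth is unknown and the number of arrays limits precision.

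Arrays were multiplied to the same median, 24.8, and log2 was taken after adding 4.35, the median over arrays of the 20th percentile. The 64 control probe sets were left out, which leaves 22746. Those above the 40th percentile on fewer than 2 arrays were then left out, leaving 16511. Groups came from the sample titles. limma 3.58.1 in R 4.3.3 fitted 6 group means with array weights per day (0.528, 0.576 and 3.29 for days 1, 3 and 7), 6 residual and 11.2 prior degrees of freedom and a variance trend. All p-values are two-sided, adjusted by Benjamini-Hochberg and called at 0.05. Exact permutation was not used, since groups of 2 cannot reach that threshold. The fit was also run on simulated data with the same scatter for all probe sets of a day. Scatter differed between probe sets on the real arrays, so no error rate is read from that run.

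The genes, lists and the weighting were chosen with earlier results of these data known. Named besides the 4 genes were called B3-domain genes, up to 2 extremes each way per family and the 3 named probe sets most like each gene. Of 13513 probe sets with a single name, 13436 matched RefSeq genes of TAIR10.1. Family membership rests on a hand-written list, since that table holds no domain descriptions.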

Additional observations from a re-analysis of the deposited data

Results flagged for a closer look

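AT3G46770 was flagged because both steroid arrays lay below both mock arrays on day 1 and above them on days 3 and 7. Its fitted log2 changes were -0.98 (day 1), 1.55 (day 3) and 1.99 (day 7). The day 3 effect exceeded the day 1 effect by 2.53 (SE 0.96), a value from the same arrays that drew attention to the gene and given with no test, and the day 7 effect was not tested against either. AT5G09780 had both steroid arrays below both mock arrays on day 3 (log2 -0.71) and above them on day 7 (log2 1.01), a difference that was not tested. Of all tested probe sets, 10.5% had both steroid arrays above both mock arrays on day 3 and 22.4% on day 7. The share with steroid arrays below mock arrays, or with a switch between days, was not counted, so nothing is read from these patterns. Both genes are dim, and the groups of 2 arrays are too small to look for single arrays that stand apart.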

How the results depend on the processing

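The day 7 values of the 4 genes are a description under every alternative that held them (23 for REM22, 24 for each of the others). They ran from 2.57 to 3.64 for REM22, 1.25 to 1.63 for AT2G35310, 0.93 to 1.61 for AT2G16210 and 2.01 to 2.83 for AT5G57720. Both steroid arrays lay above both mock arrays for each gene on day 7, so leaving out 1 array could not turn the sign. Of the 3 genes tested on days 1 and 3 (all but REM22), none was called in 366 alternative fits, where the lowest adjusted p was 0.600. Of the 5 other B3-domain genes called on day 7, AT3G53310 and AT3G46770 lost the call only with a single scatter for all arrays (adjusted p = 0.0648 and 0.9999). AT5G09780 lost it under 9 of 23 alternatives, AT3G06220 under 7 of 24 and AT3G11580 under 3 of 24. Their number was 0 with a single scatter, 3 without scaling, 3 with the 6-array filter, which leaves out AT3G46770 and AT5G09780, and 2 to 5 without 1 array. It was 3 without mock replicate 1, steroid replicate 1 or steroid replicate 2 of day 7 and 2 without mock replicate 2. On days 1 and 3 it was 0 to 0 without 1 array.

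Calls over all probe sets on day 7 (290) were 9 with a single scatter, 93 without scaling, 186 without the filter, 124 without a variance trend, 511 with the replicate block, and 73 to 315 without 1 array (87, 91 and 73 without mock replicate 1, mock replicate 2 and steroid replicate 1 of day 7). On day 3 (3) they were 0 with the 4 arrays of the day, with a halved offset, without or with a stricter filter and without a trend, 1 with quantile normalization, a floor or the scan block, and 0 to 5 without 1 array. The 5 came without steroid replicate 1 of day 3 and 1 without its replicate 2, while leaving out either other array of day 3, any array of day 1 or either day 7 steroid array gave 0. On day 1 (0) they were 3 with a single scatter, 13 without scaling, 2 with the replicate block, and 0 to 41 without 1 array, the 41 without mock replicate 2 of day 1. Between days 1 and 3 the 0 calls became 2 without scaling in mock tips, 0 to 29 without 1 array there (29 without day 1 mock replicate 2), 0 to 3 in steroid tips (3 without day 3 steroid replicate 1) and 0 to 3 for the difference of effects (3 without day 1 mock replicate 2). The cause was not tested.

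Signs turned for uncalled values. With the scan as a block, mock day 3 minus day 1 was -0.28 for REM22 and -0.0163 for AT2G16210, whose steroid day 3 minus day 1 was -0.0512 and day 3 effect 0.15. The day 1 effect was -0.16 for AT5G57720 and 0.0066 for AT5G09780. For the treatment effects the block kept mock replicate 2 alone on day 1 and steroid replicate 1 alone on day 3. It thus gave the same values there as leaving out the other array of the group. Without scaling, mock day 3 minus day 1 was 0.36 for AT2G35310 and 0.19 for AT5G57720, while the median of all probe sets moved to 0.42. With a floor AT5G18090 had 0.0479 on day 7. Without 1 array, mock day 3 minus day 1 ran from -0.50 to 1.09 for REM22, -0.29 to 0.21 for AT2G35310 and -0.67 to 0.31 for AT5G57720. For AT2G16210 the day 1 effect ran from -0.34 to 0.74, the day 3 effect from -0.52 to 0.20, their difference from -0.89 to 0.18 and steroid day 3 minus day 1 from -0.28 to 0.79. For AT5G57720 the day 1 effect ran from -0.16 to 0.40 and the difference of effects from -0.0902 to 0.89. AT5G18090 on day 7 ran from -0.71 to 0.36 and AT5G09780 on day 1 from -0.71 to 0.01.

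Replicate numbers are shared by the groups of a day, but no label says what they pair. Deviations of same-numbered steroid and mock arrays correlated at 0.12 on day 1, 0.10 on day 3 and 0.09 on day 7 across probe sets, so the block is an alternative only. It changed no call of the 5 other B3-domain genes. Without scaling the median day 7 change of all probe sets was -0.29.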
